A study of Rattus norvegicus with 5 samples.

Results

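The Astrocyte list of regions enriched by an antibody against N6-methyladenine (6mA) held 116091 peaks, out of 375486 peaks in the input-based lists of 3 rat cell types. Every placed peak called in the Astrocyte immunoprecipitation over the astrocyte input was taken. The peaks were then separated by whether they overlapped, by at least 1 bp, a peak of the list from neural stem cells (NSCs) or from Neurons. Of the Astrocyte peaks, 53169 overlapped a peak in both of these lists, 11988 a peak of NSCs only, 16995 a peak of Neurons only, and 33939 a peak of neither. The last group made up 29.2% of the list, a share that the separation itself fixed and that was not tested.

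6mA is adenine with a methyl group on its exocyclic nitrogen. It is a well-known mark of bacterial DNA, where it helps to tell own from foreign DNA, and its amount and role in mammalian DNA are debated. N6AMT1 has been described as an enzyme that places it, and ALKBH1 as one that removes it. Astrocytes are glial cells that take up glutamate and potassium from around synapses, hold the brain's glycogen, and shape synapses through secreted and engulfing proteins.

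The rat NSCs were the SCR022 line, while the Neurons and the Astrocytes were labelled by cell type alone, with no strain, age, sex, genotype or treatment given. Sonicated, adapter-ligated DNA was denatured, bound by the antibody and eluted with 6mA monophosphate, and a portion kept before the antibody served as input. Each cell type gave 1 immunoprecipitated library, so no difference below could be set against a spread between replicates, and no p was computed. The Astrocyte library held 15767015 reads, of which 14254729 (90.41%) mapped and 13866225 (87.94%) mapped uniquely, close to the 13785430 unique reads of NSCs and the 13930646 of Neurons. The peaks are stretches of DNA, so the labelled cell type could not be checked against the expression of its markers, and the presence of 6mA in a peak was not checked by another measure. Each peak's score and fold over input were set by the authors. Positions follow the authors' files, and the sources used here do not name their genome build.

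Promoters with strong Astrocyte peaks are shown for both kinds of peak, those in neither other list and those in both. The stretches printed here are the 250 bases before the annotated start, 5′ to 3′ on the gene's strand, from RefSeq for the GRCr8 assembly. They show the DNA of the named promoters and not the exact peak, since the files' build is not named. Capitals mark the pentamer GAGGC, its variants ending in T (as GAGGT) or beginning with C (as CAGGC), and the pentamer with both changes, which is CAGGT, on either strand. This family has been reported around 6mA in human DNA. The Astrocyte peaks annotated at the first 3 promoters overlapped no peak of NSCs or Neurons. They belong to Stx17, a fusion protein of autophagosomes, Zbtb46, a transcription factor known from dendritic cells, and Igip, a secreted peptide that promotes immunoglobulin A.
Stx17: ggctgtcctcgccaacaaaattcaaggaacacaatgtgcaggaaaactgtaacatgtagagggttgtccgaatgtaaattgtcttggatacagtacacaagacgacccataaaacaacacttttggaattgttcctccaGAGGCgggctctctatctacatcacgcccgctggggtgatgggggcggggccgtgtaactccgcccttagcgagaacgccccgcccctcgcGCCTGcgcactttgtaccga
Zbtb46: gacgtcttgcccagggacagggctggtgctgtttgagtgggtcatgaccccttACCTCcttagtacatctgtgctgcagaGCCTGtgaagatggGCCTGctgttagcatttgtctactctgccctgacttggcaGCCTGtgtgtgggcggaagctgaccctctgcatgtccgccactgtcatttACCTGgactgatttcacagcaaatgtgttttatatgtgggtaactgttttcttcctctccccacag
Igip: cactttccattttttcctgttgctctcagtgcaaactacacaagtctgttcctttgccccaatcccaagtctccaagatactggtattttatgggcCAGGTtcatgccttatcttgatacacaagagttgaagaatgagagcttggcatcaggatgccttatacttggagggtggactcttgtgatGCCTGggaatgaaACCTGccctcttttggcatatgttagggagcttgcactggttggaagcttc
The other 3 had the largest Astrocyte promoter folds, and their peaks overlapped peaks of both other cell types. They belong to Cfap44, a protein of motile cilia, Fanci, a DNA repair protein of the Fanconi pathway, and Irgc, a member of the immunity-related GTPase family.
Cfap44: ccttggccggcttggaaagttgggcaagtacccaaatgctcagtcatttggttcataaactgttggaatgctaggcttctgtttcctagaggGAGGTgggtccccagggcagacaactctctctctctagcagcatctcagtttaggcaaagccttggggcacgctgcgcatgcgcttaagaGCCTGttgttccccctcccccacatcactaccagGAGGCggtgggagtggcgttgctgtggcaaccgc
Fanci: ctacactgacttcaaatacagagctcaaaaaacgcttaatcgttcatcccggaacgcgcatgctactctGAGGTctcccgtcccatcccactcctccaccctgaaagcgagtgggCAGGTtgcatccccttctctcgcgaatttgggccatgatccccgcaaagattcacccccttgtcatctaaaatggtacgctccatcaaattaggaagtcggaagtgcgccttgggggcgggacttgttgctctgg
Irgc: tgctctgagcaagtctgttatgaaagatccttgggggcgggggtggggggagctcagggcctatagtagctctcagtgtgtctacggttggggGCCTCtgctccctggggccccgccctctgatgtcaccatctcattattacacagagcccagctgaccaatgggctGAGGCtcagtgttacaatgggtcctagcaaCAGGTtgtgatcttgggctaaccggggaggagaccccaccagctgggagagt
Igip held 0 CpG and a GC content of 46% in this window, Zbtb46 3 CpG and 52.8%, and Stx17 16 CpG and 53.6%. Cfap44 held 7 CpG (56.4% GC), Fanci 14 (53.6%) and Irgc 4 (58.4%). Neither set of 3 therefore shared a base composition.

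At least 1 of the pentamers stood in 93.8% of the promoters of genes with an Astrocyte promoter peak and in 91.9% of all protein-coding promoters of the same length. Promoters of genes with a promoter peak in neither other list held one in 91.9%. The reference held 1489 promoters for 1289 of the 1632 genes with an Astrocyte promoter peak. All of these are counted here as promoters with an Astrocyte peak, though a single one need not lie under a peak. GATC, the site that bacterial Dam methylates, stood in 38.0% of promoters with an Astrocyte peak, in 35.4% of those with a peak in neither other list, and in 39.5% of all. A CACACACACACA repeat on either strand stood in 0.604% of promoters with an Astrocyte peak (9 promoters) and in 0.472% of all. The median GC content was 54.4% with an Astrocyte promoter peak and 54.0% over all, and the median number of CpG was 7 and 8. These shares lay close to those of all promoters, and a match of these letters does not show a modified base.

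The Astrocyte peaks covered 58.2 Mb on 22 chromosomes. The median peak was 448 bp wide, with a score of 87.01 and a fold of 12.27 over input. The score is 10 times the −log10 of the caller's p, with a minimum of 50. Scores reached at least 100 in 49041 peaks (42.2%), and folds reached at least 20 in 23825 (20.5%), up to 278.24. The median gap from 1 Astrocyte peak to the next was 14215 bp, and 6.65% of gaps were under 1 kb, so most peaks stood alone.

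Peaks that overlapped both other lists were the strong and wide ones. Their median score was 169.44, fold 17.29 and width 548 bp, against 63.01, 10.18 and 371 bp for peaks in neither. The peaks in NSCs only and in Neurons only lay between these, with median folds of 11.02 and 11.45. A fold of at least 20 was reached by 41.7% of peaks in both lists and by 1.03% of peaks in neither, which is 351 peaks. The peaks in neither therefore took 23.0% of the covered length, less than their share of the number of peaks.

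**Figure D1:**
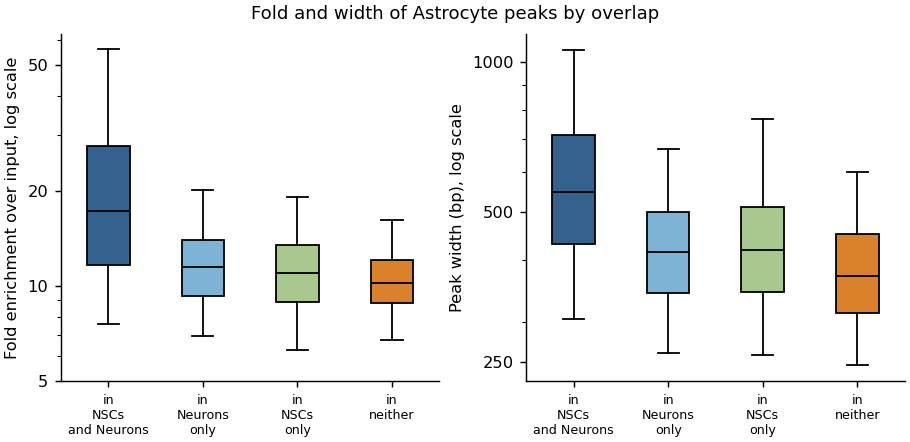
Fold over input (left) and width in bp (right) of Astrocyte peaks on log axes, by which other list they overlapped. Lines are medians, boxes the middle 50% and whiskers the 5th and 95th percentiles of peaks. The median fold is 17.29 in the group overlapping both lists and 10.18 in the group overlapping neither.

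Some folds of the peaks in neither list lay on steps. The most frequent values were 10.18 (2967 peaks), 11.45 (2566), 12.72 (1960) and 8.91 (1923), which lie 1.2725 apart within rounding. Of the peaks in neither, 38.2% had a fold within 0.006 of a whole multiple of that step, against 25.7% of the peaks in both. Small differences in fold between weak peaks were therefore not read as an order. The peaks in neither list named below were picked by this fold, and equal or close folds among them are likewise not an order.

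The share of peaks in neither list was lower at higher scores. By deciles of the score it was 59.8% in decile 1, the lowest, 43.0% in decile 4, 27.2% in decile 6 and 6.18% in decile 8. Only 39 peaks of decile 9 and 1 of decile 10 lay in neither list. At the upper end, 99.97% of peaks in decile 10 (scores from 447.73) overlapped both other lists.

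**Figure D2:**
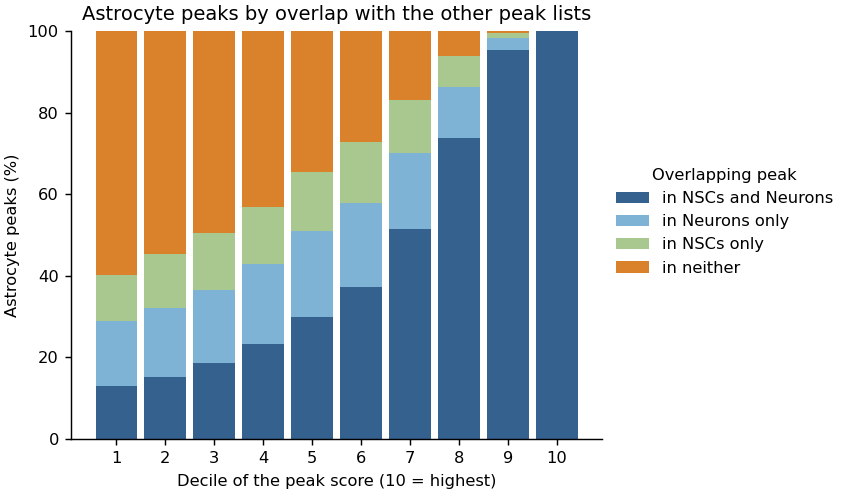
Share of Astrocyte peaks (%) overlapping both other lists, Neurons only, NSCs only or neither, in each decile of the peak score. The share in neither goes from 59.8% in decile 1 to 1 peak in decile 10.

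Absence from another list did not by itself mean a listed difference between the libraries. The authors also compared the immunoprecipitated libraries with each other, and both comparisons used here share the Astrocyte library. They also use the NSC and Neuron libraries whose peak lists define the groups. A higher listed share among peaks in neither is therefore partly set by the separation and is no independent support. In the authors' deposited tables of these comparisons, 15.0% of all Astrocyte peaks were listed as higher than in NSCs and 11.2% as higher than in Neurons. Of the peaks in neither list, 10138 (29.9%, exact 95% interval 29.4 to 30.4) were listed as higher than in NSCs and 9331 (27.5%, 27.0 to 28.0) as higher than in Neurons. In 57.3% of these peaks no listing as higher was made in the authors' deposited tables.

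The listed share followed the score. Among peaks in neither list, 12.1% of decile 1 and 70.6% of decile 8 were listed as higher than in NSCs. The shares for Neurons were 11.6% and 70.5%. Among peaks in both lists, 5.22% were listed as higher and 5.41% as lower than in NSCs in the authors' deposited tables. Against Neurons, 1.71% of the peaks in both were listed as higher and 7.45% as lower. Both directions were made differently, since regions listed as higher carry the coordinates of Astrocyte peaks, so their numbers cannot be set against each other.

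**Figure D3:**
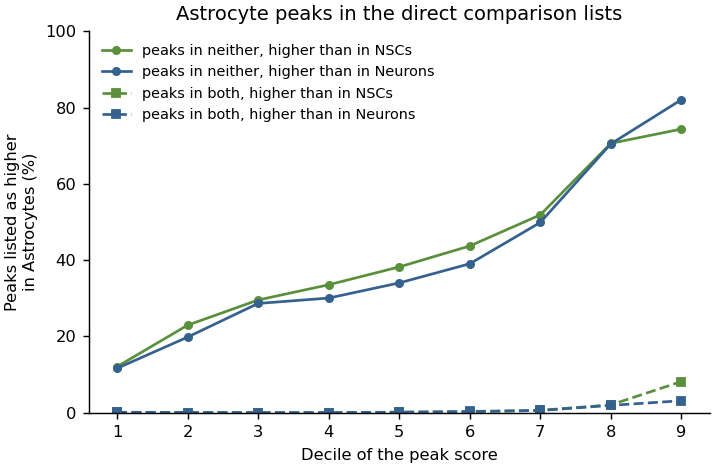
Share of Astrocyte peaks (%) that the authors listed as higher in Astrocytes than in NSCs (green) or Neurons (blue), by decile of the score. Solid lines are peaks in neither other list and dashed lines peaks in both. Among peaks in neither, the share against NSCs goes from 12.1% in decile 1 to 70.6% in decile 8. Decile 9 holds 39 peaks in neither, and decile 10, with 1, is not drawn.

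By position, 71079 Astrocyte peaks (61.2%) lay outside every annotated gene class, and 39691 (34.2%) lay in introns. Peaks in neither list lay in gene bodies slightly less often than those in both. Gene bodies held 34.4% of the former (33.9 to 34.9) and 36.1% of the latter (35.7 to 36.5), promoters 2.89% and 3.18%, and exons 3.03% and 2.98%. CpG islands held 0.177% of peaks in neither (60 peaks), 0.173% of peaks in both (92) and 0.0751% of those in NSCs only (9 peaks, 0.0343 to 0.142). Over all Astrocyte peaks, the gene body share was 34.1% in the lowest score decile and 39.7% in the highest, and the promoter share 3.03% and 3.54%. Peaks in neither had low scores, and the part of the score in their position was not tested. How much of the genome each class takes up was not measured, so no class can be called enriched.

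Chromosome X differed from every autosome in the make-up of its peaks. It held 4531 Astrocyte peaks, of which 39.7% (38.2 to 41.1) were in neither list, against 28.8% over the 20 autosomes and a range of 19.7% on chromosome 12 to 31.8% on chromosome 6. The density of peaks in both lists on X was 0.427 times that of the autosomes, while the density of peaks in neither was 0.916 times. Peaks on X had a median score of 74.05, below the range of 84.31 to 110.75 over autosomes. Within score deciles 1 to 8 the share in neither was also higher on X, with 63.8% against 59.6% in decile 1, 39.3% against 34.3% in decile 5 and 11.1% against 6.03% in decile 8.

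Chromosome 12 stood at the other end, with 57.1 peaks per Mb, of which 59.7% were in both lists, and a median score of 110.75. Chromosome 14 was the sparsest autosome with 25.2 peaks per Mb, while its share in neither, 30.2%, lay within the range of the other autosomes. The density of peaks in neither varied little apart from chromosomes 14 and Y, from 11.2 per Mb on X to 13.9 on chromosome 2. Over the 20 autosomes, the share in neither and the median score had a Spearman rho of −0.83, a description of chromosomes that share 1 library. Chromosome Y held 40 peaks.

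**Figure D4:**
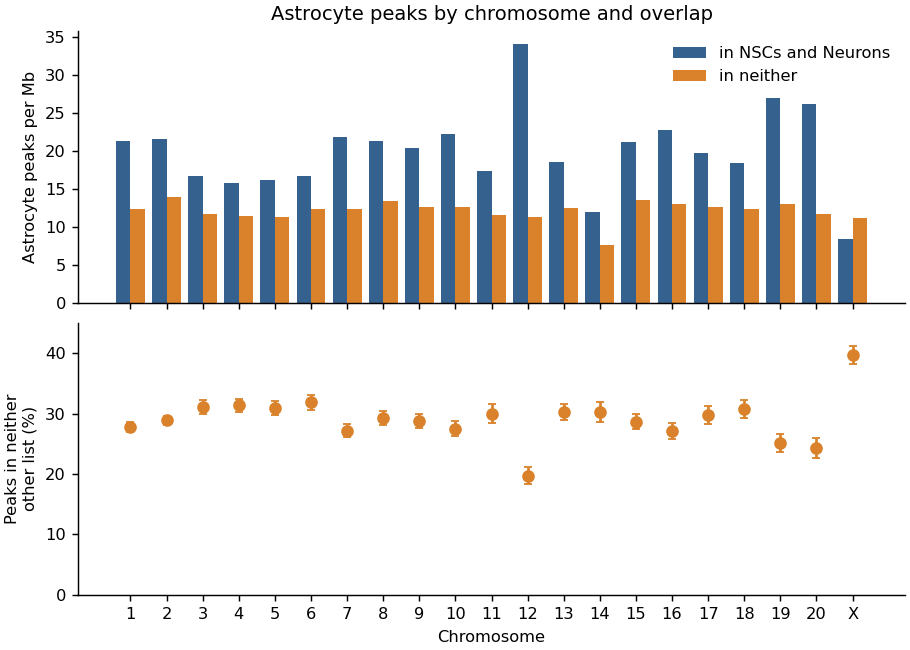
Top, Astrocyte peaks per Mb that overlapped both other lists or neither, by chromosome. Bottom, share of each chromosome's Astrocyte peaks in neither list (%), with exact 95% intervals that cover counting error only. X lies at 39.7% and chromosome 12 at 19.7%; Y, with 40 peaks, is not drawn.

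Of 23148 protein-coding genes, 9722 (42.0%) had an Astrocyte peak in any gene class and 5179 (22.4%) had one in neither other list. For 1506 genes, all Astrocyte peaks were in neither list. Promoter peaks were called at 1632 genes (7.05%). Long genes held more of them: genes with a peak had a median length of 41.8 kb and genes without one 7.25 kb. From the shortest to the longest length decile of genes, the share with a peak went from 9.42% to 90.1%, and the share with a peak in neither from 3.20% to 73.3%. Promoter peaks depended less on length, with 4.97% and 9.29%. Gene lists are therefore given with the share among all genes in the length decile of their median member, called genes of similar length below. Single members were not matched by length, so a list with some long members can lie above that share through these alone. Protein-coding genes whose deposited name did not match the reference count as without a peak, which can lower that share. All genes of the lists were found in the reference. That does not show that the deposited annotation names each of them, so a gene without a listed peak may be unnamed there. Differences from that share were not tested.

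Among genes whose products define astrocytes, 13 of 25 had an Astrocyte peak (52%), against 32.3% of all genes of similar length, and 5 (20%) had one in neither list, against 11.6%. Kcnj10, the Kir4.1 potassium channel of glia from the list of ion handling genes, held the strongest peak at a classical astrocyte gene examined singly. It was an intronic peak at chr13:90750411-90750979 with a fold of 113.46, and it overlapped peaks of both other cell types. Slc1a2, the main glial glutamate transporter, had 1 intronic peak with a fold of 24.98, and Aqp4, the water channel of astrocyte endfeet, had a promoter peak with a fold of 25.76, both shared with both other lists. Gfap, the astrocyte intermediate filament, had 2 peaks in a CpG island shore with folds of 13.3 and 8.43, also in both. Slc1a3, the other glial glutamate transporter, had 2 intronic peaks with folds of 11.99 and 8.8, which overlapped Neuron peaks only.

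None of these 5 genes, Kcnj10, Slc1a2, Aqp4, Gfap and Slc1a3, therefore had a peak confined to the Astrocyte list. Aldh1l1, a folate enzyme used as a pan-astrocyte marker, had 3 peaks with folds of 24.8 to 33.09, all in both lists. The peak with a fold of 24.8 was listed as higher than in NSCs, with a fold of 4.39 in the authors' deposited table. No Astrocyte peak was listed at S100b, Aldoc, Gja1, Glul or Sox9, which encode a calcium-binding protein, an aldolase, connexin 43, glutamine synthetase and a gliogenic transcription factor.

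The largest folds among astrocyte markers lay at Slco1c1, a thyroid hormone transporter (113.05), Gpc5, a glypican (82.71), Vim, the intermediate filament vimentin (50.32), and Slc14a1, a urea transporter (42.84). All 4 peaks overlapped both other lists. Gpc5 alone held 55 of the 97 peaks of this list and 17 of its 22 peaks in neither. Its strongest peak in neither had a fold of 15.27. The enzymes Acsl6 and Acsbg1, which activate fatty acids, had peaks in neither with folds of 10.25 and 7.23, and Slc4a4, a bicarbonate transporter, one with 8.91.

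**Figure D5:**
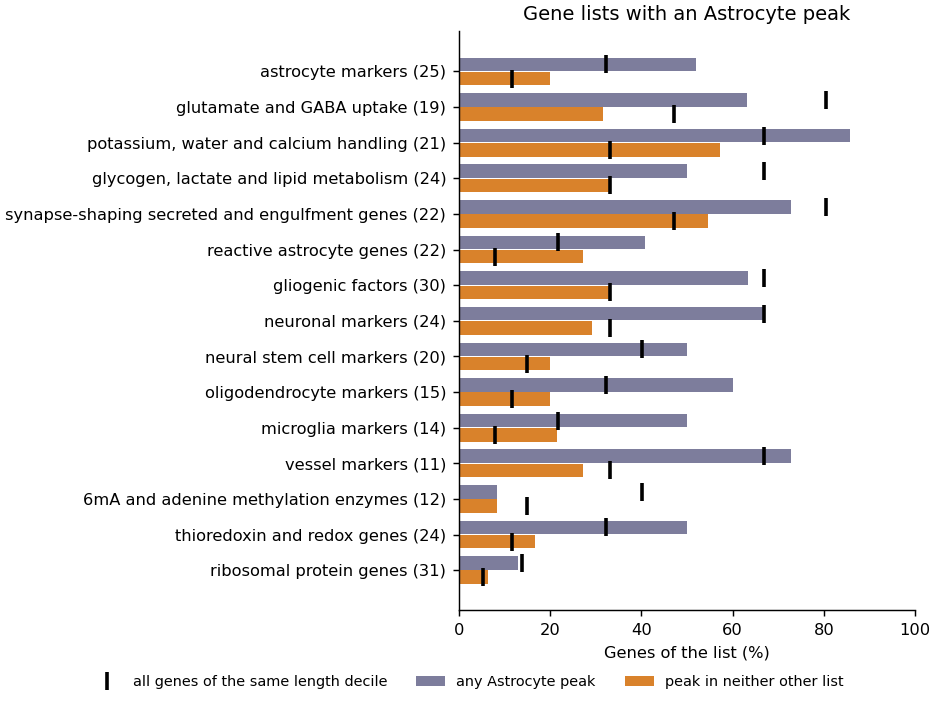
Percent of the genes of each list (number of genes in parentheses) with any Astrocyte peak (grey) or with a peak in neither other list (orange). Black ticks give the same share over all protein-coding genes in the length decile of the list's median gene. Astrocyte markers reach 52% with any peak and 20% with a peak in neither.

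Genes of glutamate and GABA uptake had a peak in 12 of 19 cases (63.2%), against 80.5% of all genes of similar length, and 6 (31.6%) had one in neither, against 47.2%. The list thus lay below genes of similar length on both counts. Slc6a11, a GABA transporter of astrocytes, had an intronic peak with a fold of 128.89, Slc6a13, a related transporter, one with 116.64, and Slc1a1, a glutamate transporter best known in neurons, one with 104. All 3 overlapped both other lists. Slc1a1 also had 3 peaks in neither list, the strongest with a fold of 18.62, and all 4 of its peaks were listed as higher than in NSCs. Slc6a9, a glycine transporter, had a single peak, in neither list, with a fold of 17.98. The metabotropic receptor genes Grm5 and Grm3 had peaks in neither with folds of 16.54 and 15.27.

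Genes for potassium, water and calcium handling had the highest share, 18 of 21 (85.7%), against 66.8% of genes of similar length, and 12 (57.1%) had a peak in neither, against 33.1%. No peak was listed at Atp1b2, a sodium pump subunit, or Dag1, which encodes dystroglycan. Itpr2, the main inositol trisphosphate receptor of astrocytes, held 27 peaks, of which 24 were in both lists, with a top fold of 118.34. Kcnk2, a leak potassium channel, reached 108.42. By contrast, Slc12a2, a sodium, potassium and chloride cotransporter, had 2 peaks, both in neither list, with a top fold of 11.45. Stim1, a sensor of stored calcium, had a peak in neither with a fold of 14.05.

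In glycogen, lactate and lipid metabolism, 12 of 24 genes (50%) had a peak, against 66.8% of genes of similar length, and 8 (33.3%) had one in neither, against 33.1%. Gbe1, the glycogen branching enzyme, held 11 peaks, 4 of them in neither (top fold 15.51). Phka1, a subunit of phosphorylase kinase, held 6, of which 4 were in neither (14). Gys1, glycogen synthase, had a single peak, in neither, with a fold of 10.06. No peak was listed at the lactate genes Ldha, Slc16a1 and Slc16a3, nor at Pygb, the brain glycogen phosphorylase. Of their relatives in the list, the lactate dehydrogenase gene Ldhb had 3 peaks with a top fold of 11.64 and 1 peak in neither, and Pygm, the muscle phosphorylase, had 3 with a top fold of 9.66. Lpl, a lipoprotein lipase, had the list's largest fold, 46.4, in both.

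Of 22 synapse-shaping and engulfment genes, 16 had a peak (72.7%), against 80.5% of genes of similar length, and 12 had one in neither (54.5%), against 47.2%. Cacna2d1, which encodes a neuronal receptor for thrombospondins, reached a fold of 148.67, and Mertk, an engulfment receptor, 139.29, both in peaks shared with both lists. Of the 6 peaks of Megf10, another engulfment receptor, 5 were in neither list and none was in both. Its peak of largest fold had a score of 82.64, below the median of 87.01 of all Astrocyte peaks, while that of Mertk had 3100. Low-scoring peaks were more often in neither list, and the part of the score in this contrast was not tested. Gpc6 and Gpc4, glypicans that recruit synaptic receptors, had peaks in neither with folds of 14 and 12.72.

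Reactive astrocyte genes had a peak in 9 of 22 cases (40.9%), against 21.8% of genes of similar length, and 6 (27.3%) had one in neither, against 8.04%. Steap4, a metalloreductase, had the largest fold, 81.44, in both, and Cd44, a hyaluronan receptor, had 4 peaks of which none was in both. Lcn2, Serpina3n, Stat3, Socs3 and Cxcl10, which reactive astrocytes express, had none. Promoter peaks in this list lay at Cd44, Osmr, Cp and Nfkb1, and the one at Cp was in neither list.

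Gliogenic factors had a peak in 19 of 30 genes (63.3%), against 66.8% of genes of similar length, and 10 (33.3%) had one in neither, against 33.1%. Both shares were near those of the background. Nfia, a factor that starts gliogenesis, had 13 intronic peaks, 7 in both lists and 4 in neither. The 7 in both had folds from 8.71 to 78.29, and the 4 in neither folds of 11.23 to 15.47. Zbtb20, a transcription factor of astrocyte formation, had 14 peaks with 8 in neither, 1 of them with a fold of 19.09 and listed as higher than in NSCs. Erbb4, a neuregulin receptor, had 39 peaks, 16 of them in neither. Sox2, Hes1, Hes5, Id1, Id3 and Id4 had none, while Id2 had 1 with a fold of 53.28.

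Markers of other cells also had peaks in the Astrocyte list. A peak was present at 16 of 24 neuronal genes (66.7%, against 66.8% of genes of similar length) and at 8 of 11 vessel genes (72.7% against 66.8%). It was present at 10 of 20 neural stem cell genes (50% against 40.1%), 9 of 15 oligodendrocyte genes (60% against 32.3%) and 7 of 14 microglia genes (50% against 21.8%). Oligodendrocyte and microglia markers thus lay above the share of their length decile, as astrocyte markers did, with the limits of that share given above. Peaks in neither were present at 7 neuronal (29.2% against 33.1%), 3 vessel (27.3% against 33.1%), 4 stem cell (20% against 15.0%), 3 oligodendrocyte (20% against 11.6%) and 3 microglia genes (21.4% against 8.04%). Syt1, a synaptic vesicle protein of neurons, had 22 peaks, 7 of them in neither, with a top fold of 103.07. Pdgfrb, a pericyte receptor, reached 51.14 and Lpar1, a lysophosphatidic acid receptor, 65.55. Astrocyte peaks thus lay at marker genes of every cell type examined.

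N6amt1, named in the series title as the methyltransferase, had no Astrocyte peak in any gene class. Of the 12 genes for adenine methylation enzymes and their partners, only Fto, a demethylase, had any: 13 peaks, 7 in both lists and 3 in neither, with a top fold of 60.74. All genes of similar length had a peak in 40.1% of cases and one in neither in 15.0%, against 8.33% of this list for each. Txnrd3, the thioredoxin reductase of the title, had 3 intronic peaks on chromosome 4. The peak at chr4:121620375-121620798 had a fold of 9.62 and overlapped Neurons only. It was listed as higher than in NSCs with a fold of 14.62 in the authors' deposited table. The second, with a fold of 10.37, overlapped NSCs only, and the third, with 9.97, overlapped both.

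None of the Txnrd3 peaks was particular to the Astrocyte list, and all 3 folds lay below the list's median of 12.27. Of 24 thioredoxin and redox genes, 12 had a peak (50%), against 32.3% of genes of similar length, and 4 had one in neither (16.7%), against 11.6%. Cat, the catalase gene, had the largest fold, 66.53, followed by Nqo1, a quinone reductase, with 37.33, both in both lists. In neither list lay peaks of Gsr, glutathione reductase (12.3), and of Gclc, Gss and Prdx3, which serve glutathione synthesis and peroxide removal (9.28, 8.48 and 9.41). Ribosomal protein genes, which are short, had a peak in 4 of 31 cases (12.9%), near the 13.8% of genes of similar length, and none inside a gene body. Those with a peak in neither numbered 2 (6.45%), against 5.31%.

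Among the strongest peaks in neither list were those in introns of Ncoa6, a nuclear receptor coactivator (fold 35.96 at chr3:150945176-150945769), Fam227b (26.72) and Tfcp2l1, a transcription factor of pluripotent cells (26.72). Folds close to these were found for Nhej1, a DNA end-joining factor (25.87), Tusc3 (25.47), Fibcd1 (25.45), Kif5b, a kinesin motor (25.45), Ano4 (25.21) and Bcl2l11, the pro-apoptotic protein Bim (25.08). In the authors' deposited tables, 8 of these 9 peaks were listed as higher than in NSCs and 7 as higher than in Neurons. The peak at Fibcd1 was in neither of these tables, and that at Tfcp2l1 only in the one against NSCs. The peaks were chosen for a large Astrocyte fold and no overlapping NSC or Neuron peak, and the comparisons use the same libraries. Such listings are therefore no independent support. Every peak of Ncoa6 and of Kif5b, 2 each, was in neither list.

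At promoters, strong peaks in neither list included those of Xkr5 (24.18) and Grpr, a receptor for gastrin-releasing peptide (20.36). The promoters of Stx17, Zbtb46 and Igip printed above each carried a peak with a fold of 19.09. Arhgef12, a guanine nucleotide exchange factor, Kat2b, an acetyltransferase, Lgr4, a receptor for R-spondins, and Dennd5b had folds of 19, 18.74, 17.91 and 17.81. All 5 Astrocyte peaks of Lgr4 were in neither list. The promoter peaks of Xkr5 and Lgr4 overlapped a CpG island, and those of the other 7 named here did not.

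Among all promoters the folds were several times larger, and all 10 leading peaks overlapped both other lists. Cfap44 had 148.87, Fanci 142.12 and Irgc 138.99, and Dmac2 (132.06), Cyp26b1, which degrades retinoic acid (128.01), Napsa, an aspartic protease (126.01), and Tmem121b (124.81) followed. Prkd2, a protein kinase, Spire2, an actin nucleator, and Paqr3 closed the 10 with 124.48, 116.7 and 108.16.

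Very long genes collected the most peaks in neither list. Dpp10, an accessory subunit of potassium channels with a length of 1676.5 kb, held 109 Astrocyte peaks, 35 of them in neither (32.1%, 23.5 to 41.7). Galntl6 held 29 of 83, Cntnap2, a neurexin-related adhesion protein, 26 of 57 and Rbms3 25 of 91. Schip1 had 25 of 53 in neither (47.2%, 33.3 to 61.4), above the 29.2% of all Astrocyte peaks, as did Cntnap2 (45.6%, 32.4 to 59.3) and Fhit (45.2%, 29.8 to 61.3). The intervals of Dpp10, Galntl6, Rbms3, Ctnna3, Csmd1 and Lrp1b included that share. These genes were chosen for their number of such peaks, so these shares are descriptions.

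The authors' deposited GO table for Astrocytes lists 13661 terms, of which 66 (0.483%) had more genes with a peak than expected and 13 (0.0952%) fewer, at an adjusted p of 0.05. Of the 79 terms past that threshold, 55 also passed in the authors' deposited tables of both other cell types, and 11 passed in Astrocytes only. These 11 departed from expectation in the same direction in the authors' deposited tables of NSCs and Neurons, and a difference between cell types was not tested. At an adjusted p of 0.01 in the authors' deposited tables, 3 terms passed in Astrocytes only. The lowest adjusted p in the authors' deposited table for Astrocytes, 2.05e-54, belonged to olfactory receptor activity. In that term 172 of 1344 genes had a peak, 0.317 times the expected number. Genes with a peak for that term had a median length of 0.942 kb, close to the 0.933 kb median of the shortest length decile. G protein-coupled receptor activity (306 of 1603 genes, 0.474 times) and odorant binding (46 of 423, 0.27 times) in the authors' deposited table were likewise low. Among terms with more genes than expected, the authors' deposited table gave ATP binding with 907 of 1433 genes (1.57 times), calcium ion binding with 436 of 651 (1.66 times) and neuronal cell body with 366 of 548 (1.66 times). Genes with a peak for these 3 terms had median lengths of 60.3, 65.3 and 68.0 kb.

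The authors' deposited KEGG table for Astrocytes lists 325 pathways, with 73 (22.5%) above and 4 (1.23%) below expectation at an adjusted p of 0.05. Of the 77 pathways past that threshold, 43 also passed in the authors' deposited tables of both other cell types, and 13 passed in Astrocytes only. These 13 likewise departed in the same direction in the authors' deposited tables of NSCs and Neurons. At an adjusted p of 0.01 in the authors' deposited tables, 6 pathways passed in Astrocytes only. Olfactory transduction (201 of 1330 genes, 0.375 times) and Ribosome (28 of 176, 0.395 times) were low in the authors' deposited table for Astrocytes. Phospholipase D signaling (109 of 148 genes, 1.83 times), Focal adhesion (138 of 202, 1.69 times), Ras signaling (155 of 237, 1.62 times) and Axon guidance (121 of 178, 1.69 times) were high in the authors' deposited table. Of the genes with a peak in Axon guidance, 87 (71.9%) had one in neither other list, against 53.3% of all protein-coding genes with a peak. Their median length was 109 kb, and in the 2 longest length deciles of all genes that share was 58.6% and 81.4%. Of 18 terms of at least 20 genes whose names concern glutamate, potassium, water, gap junctions or glia, a set chosen after values were seen, 3 passed an adjusted p of 0.05 in the authors' deposited tables. The others had adjusted p-values from 0.341 to 0.99 in the authors' deposited tables, potassium ion transport (0.368) and the GO term for gap junctions (0.99) among them. Those that passed were the GO term glutamatergic synapse and the KEGG pathways Gap junction and Glutamatergic synapse. Gap junction had 59 of 88 genes in the authors' deposited table (1.66 times, adjusted p = 0.0217). In the authors' deposited tables it had 1.57 times in NSCs, where it also passed 0.05, and 1.48 times in Neurons. The pathway Glutamatergic synapse had 86 of 116 genes in the authors' deposited table (1.84 times, adjusted p = 0.000866). The authors' deposited tables for NSCs and Neurons gave 1.80 and 1.71 times for the same pathway, and no difference between the tables was tested. Long genes hold more peaks, and the part of gene length in these terms was not tested.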

How the data were processed

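The 6mA immunoprecipitations of NSCs, Neurons and Astrocytes, 1 library each, were analysed from the authors' deposited peak lists. Reads were aligned with BWA, per the submitters' processing notes, which name no version. The sources used here name neither the build nor the peak caller and its filters. The mapping summary holds deposited read counts, mapping rates as a percent of reads, and another read number for unique reads in the same chromosome. Its row for the astrocyte input belongs to no sample and was not used. The deposited score is 10 times the −log10 p-value, and the deposited fold is a ratio over input. The deposited GO and KEGG tables hold gene counts, an expected number, a fold ratio and an adjusted p-value per term, all computed by the authors with a test that is not stated.

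Peaks were read as deposited, skipping 5 blank lines, and overlaps of at least 1 bp were found with a routine tested on simulated data (Python 3.11.15, pandas 2.3.3, scipy 1.17.1). Shares carry 95% Clopper-Pearson (exact) intervals, which cover only counting error, since neighbouring peaks are not independent. The report gives the depth of the immunoprecipitated libraries, while the NSC input had 27936774 reads and the Neuron input 22329441. Chromosome lengths were the largest region end in the lists. Deposited symbols were matched to the RefSeq table of GRCr8, which gave gene lengths and promoters only: 11356 of 15569 matched, and 9563 of 9656 that were not placeholder names. A gene counted as having a peak when the deposited annotation placed one in its promoter, exons, introns or within 2 kb. No test between cell types was possible.

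The peaks and the 15 gene lists (314 genes) were chosen with earlier results of these data known. Genes were named by rule: both genes of the series title, up to 4 members per list with the largest fold and up to 4 with the largest in neither list, and 10 each for the strongest peaks in neither, the strongest promoter peaks in neither and among all peaks, and the most peaks in neither, plus the 10 GO and 10 KEGG terms of smallest adjusted p, of which a selection is described. Other list members named in the text were chosen after their values were seen. Promoters were printed for the first 3 genes of each promoter group that the reference table held. Xkr5 and Grpr are named only. Some items that the rule takes are not reported here. Steps in the fold were looked for after the data were seen. Alternatives varied the score, fold, overlap, list size, chromosomes, gene class and p threshold.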

Additional observations from a re-analysis of the deposited data

How the results depend on the processing

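Of 92 comparisons with another setting, 29 were counted as moved and 63 were not, though some counts among the 63 also changed. The share of Astrocyte peaks in neither list (29.2%) was 19.6% with scores of at least 100 in all 3 lists, 6.77% with that score in the Astrocyte list alone, 24.9% with 58045 top peaks per list, 30.8% with an overlap of at least 50% of the peak and 26.4% when another peak within 500 bp counted. The share in both lists (45.8%) was 60.2%, 78.1%, 54.3%, 44.0% and 48.6% under the same settings. With scores of at least 100, gene bodies held 36.3%, promoters 3.17% and no gene class 59.8% of peaks; with folds of at least 20 these were 37.7%, 3.14% and 58.3%, and CpG islands held 0.197%. Peaks in neither were listed as higher than in NSCs in 55.6% of cases with scores of at least 100 and 29.1% with the 50% overlap, and higher than in Neurons in 53.9% and 26.9%. With scores of at least 100, 5 neural stem cell markers and 0 ribosomal protein genes had a peak. Other lists, not counted as moved, also had fewer genes with a peak at that score. Genes for potassium, water and calcium handling went from 18 to 12, and those for glycogen, lactate and lipid metabolism from 12 to 8. Synapse-shaping genes went from 16 to 12, gliogenic factors from 19 to 14 and redox genes from 12 to 8. The share of all genes at that score is not given here. Inside gene bodies alone, 0 ribosomal protein genes had a peak, and 0 had one in neither list. At an adjusted p of 0.01, the authors' deposited tables hold 52 GO and 29 KEGG terms, against 79 and 77. The density on X over autosomes (0.665) was 0.428 with scores of at least 100 and 0.639 against the median autosome. The other values on X were computed with the main settings alone. No paired analysis was possible because each cell type had 1 library, and none could be left out.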
